A study of Mus musculus with 5 samples.

Results

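Cells make cholesterol and fatty acids from acetyl-CoA, and the genes for both routes are switched on together by the sterol regulatory element-binding proteins (SREBPs). The 33 genes described here are 18 enzymes of sterol synthesis, 9 enzymes of fatty acid synthesis and modification, and 6 genes for the SREBPs, the proteins that control them and the sterol carrier STARD4. They were chosen by name as members of this pathway, with earlier results of these data known, so no test of the set is given. All 33 were found among the 46983 genes of the deposited count tables by their Ensembl identifiers. RNA was sequenced from cells labelled as tumour-associated macrophages (CD45+ CD11B+ Ly6G- F4/80+) in mice of the strain given as C57/BL6, whose mammary glands carried tumours of the murine breast cancer line EO771. In 2 libraries the regulatory T (Treg) cells of the mice had been removed by diphtheria toxin, given in 2 doses of 50 µg/kg, and sorting took place on day 4. The 3 control libraries came from untreated tumours. The labels do not name the allele that makes Treg cells sensitive to the toxin or give the age of the mice. As controls had no toxin, its own effect and that of losing Treg cells cannot be told apart. The labels do not state whether each library is a different mouse; p-values therefore reflect how far the libraries differ, and that spread may be technical.

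As background, SREBP-2 mainly drives the cholesterol genes and SREBP-1 mainly the fatty acid genes. Both are made as membrane proteins of the endoplasmic reticulum, where SCAP carries them to the Golgi for cleavage when sterols are low, and the INSIG proteins hold SCAP back when sterols are high. In macrophages the pathway is known to be lowered by oxysterols and reshaped by interferons and by inflammatory activation.

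Library totals ran from 13122668 to 20156835 counts, and the depth of control replicate 2 was the greatest. Against the sort gate, fibroblast genes were far above macrophage genes: the summed level of 20 fibroblast markers was 21820 to 27580 CPM (counts scaled to a library total of 1e+06, with TMM factors) and that of 20 macrophage markers 317 to 550 CPM, with Adgre1, which encodes F4/80, at 5.73 to 9.87 CPM and Ly6g at no more than 0.189 CPM. By the mean over the 5 libraries, the most abundant of the former were Fn1 (7850 to 11750 CPM) and Col3a1 (7467 to 9556 CPM), and of the latter Lyz2 (99 to 205 CPM) and Csf1r (20.5 to 52.5 CPM). For the rest of the gate, Ptprc, which encodes CD45, had 22.1 to 33 CPM. Itgam, which encodes CD11B, had 12.2 to 19 CPM. The keratin gene Krt18, an epithelial marker, had 180 to 222 CPM. The libraries are therefore described as labelled, and no change below is assigned to a cell type. In such mixed RNA, fewer cells of a type and less RNA per cell cannot be told apart.

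Most SREBP genes were lower after Treg ablation, in both branches. Of the 33 genes, 24 fell, 1 rose and 8 did not pass an adjusted p of 0.05 in edgeR's quasi-likelihood test, where 12.3% of the 14580 genes tested were lower and 13.5% higher (25.8% in either direction). Of the 18 sterol enzymes 11 were lower and 0 higher, of the 9 fatty acid enzymes 8 were lower and 0 higher, and of the 6 regulator and carrier genes 5 were lower and 1 higher. The changes were small. The median log2 fold change was −0.31 over the 33 genes and −0.01 over all genes tested, 29 of the 33 and 50.7% of all genes had a value below 0, and only Dhcr7, Fasn, Mvd and Fads2 fell by more than 1.5-fold. In 26 of the 33 genes both Treg-ablated libraries lay below all 3 controls, against 25.6% of all genes, and in 1 they lay above, against 26.9%. Of the 24 genes that fell, 12 passed as lower under all 13 alternatives of processing: Srebf2, Scap, Acat2, Mvk, Mvd, Fdft1, Lss, Dhcr7, Fasn, Scd2, Fads1 and Fads2. Calls that ended with the replicate number as a block are named in the closing section and not gene by gene.

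**Figure D1:**
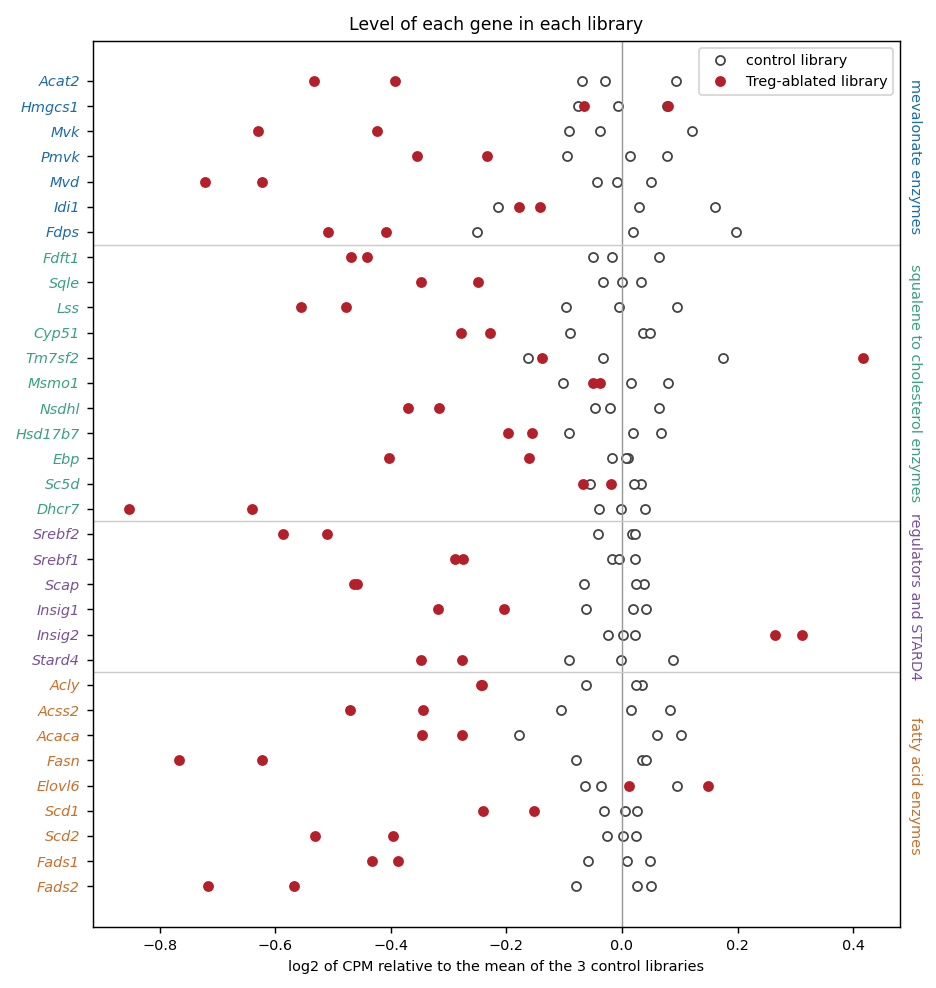
Level of each of the 33 genes in each library, as log2 of CPM relative to the mean of the 3 control libraries. Filled points are the 2 Treg-ablated and open points the 3 control libraries; gene names are coloured by role. In 26 genes both filled points lie to the left of every open point, and only for Insig2 do both lie to the right.

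The promoters of 4 genes are shown as examples. Srebf2 and Mvd are sterol genes that fell, and Fasn is the fatty acid gene that fell most. Hmgcs1 is a sterol gene that did not pass. Each promoter is the RefSeq sequence (GRCm38.p6) of the 250 bases before the transcription start, read 5′ to 3′ on the strand of the gene. Capitals mark, on either strand, TCACNCCA (a sterol regulatory element core, with TCACNCCAC as its longer form), CACGTG (an E-box, also read by SREBP-1), CCAAT (bound by NF-Y) and GGGCGG (bound by Sp1). NF-Y and Sp1 are known partners of the SREBPs. The windows of Mvd and Fasn held neither form of the sterol core and no CACGTG. Their capitals are CCAAT and, in Mvd alone, GGGCGG.
Srebf2 at chr15:82147019-82147268 (plus strand): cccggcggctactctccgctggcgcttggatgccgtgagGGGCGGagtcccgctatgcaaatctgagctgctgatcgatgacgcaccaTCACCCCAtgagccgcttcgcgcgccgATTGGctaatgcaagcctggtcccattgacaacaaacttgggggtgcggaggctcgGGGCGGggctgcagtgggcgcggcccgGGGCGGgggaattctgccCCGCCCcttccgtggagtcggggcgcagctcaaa
Mvd at chr8:122443423-122443672 (minus strand): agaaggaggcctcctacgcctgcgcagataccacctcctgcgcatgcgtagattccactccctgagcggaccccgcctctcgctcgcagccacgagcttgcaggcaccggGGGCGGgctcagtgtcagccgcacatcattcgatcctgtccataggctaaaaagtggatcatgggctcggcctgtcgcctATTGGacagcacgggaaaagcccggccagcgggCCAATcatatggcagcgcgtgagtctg
Fasn at chr11:120824548-120824797 (minus strand): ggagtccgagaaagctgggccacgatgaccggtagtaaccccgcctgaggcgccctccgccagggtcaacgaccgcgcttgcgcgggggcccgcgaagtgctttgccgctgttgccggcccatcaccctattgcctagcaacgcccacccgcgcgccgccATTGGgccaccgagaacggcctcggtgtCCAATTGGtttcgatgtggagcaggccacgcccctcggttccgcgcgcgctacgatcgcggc
Hmgcs1 at chr13:119690101-119690350 (plus strand): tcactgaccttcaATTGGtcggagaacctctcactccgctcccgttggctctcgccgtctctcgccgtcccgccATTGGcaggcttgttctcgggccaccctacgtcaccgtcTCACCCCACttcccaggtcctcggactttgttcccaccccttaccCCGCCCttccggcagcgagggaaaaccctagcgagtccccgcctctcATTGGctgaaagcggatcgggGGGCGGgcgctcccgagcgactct

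The longer sterol element core was present in Hmgcs1, 137 to 129 bases before its start. Srebf2 held the shorter core from 162 to 155 bases before its start; this form was added after the Srebf2 sequence was seen, and it overlaps the longer one. Windows were available for 26 of the 33 genes, 34 windows in all as some genes have several starts. The longer core was in 1 of these windows (2.94%) and in 1.05% of all 32851 windows, and the shorter core in 3 (8.82%) and 3.67%. CACGTG was in 14.7% of the members' windows, 6.02% of all windows and 8.05% of the windows of genes tested here. CCAAT was in 61.8% of the members' windows and 33.8% of all, and GGGCGG in 73.5% and 32.7%; in the windows of genes tested here the last 2 shares were 35.1% and 56.3%. CCAAT was present in 12 of the 17 genes that fell and had a window, and in 7 of the 8 that did not pass. GGGCGG was in 14 of those 17 and in 7 of those 8. CCAAT and GGGCGG thus occurred in genes of both kinds. The longer sterol core was in 0 of those 17 and 1 of those 8, the shorter core in 1 and 2, and CACGTG in 3 and 2. These counts are too small to set the genes that fell apart from those that did not pass. A match of letters is not a bound site, and the lack of a match does not show that a site is absent.

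Among the regulators, the genes for both SREBPs, their escort and INSIG1 fell, while the gene for INSIG2 rose. Srebf2, which encodes SREBP-2 (ENSMUSG00000022463, chromosome 15, 82147266 to 82205376, GRCm38), had 259 and 273 CPM in Treg-ablated replicates 1 and 2 and 378, 394 and 395 CPM in control replicates 1, 2 and 3. Both Treg-ablated libraries were well below the lowest control (log2 fold change −0.55, SE 0.0663, edgeR adjusted p = 0.000604). Scap, which encodes the escort protein (ENSMUSG00000032485, chromosome 9, 110333288 to 110384950, GRCm38), had 159.5 and 159 CPM after ablation and 209, 225 and 223 CPM in controls (log2 fold change −0.46, SE 0.066, edgeR adjusted p = 0.00128). The 2 Treg-ablated values of Scap were nearly equal and the groups did not overlap. Part of this gene (13.2% of its exon bases) overlaps an antisense gene, whose reads cannot be told apart from its own without strand. Srebf1, which encodes SREBP-1, had 87.3 and 88.2 against 106, 108 and 106 CPM (log2 fold change −0.28, SE 0.0642, edgeR adjusted p = 0.0106). This call ended without control replicate 2 (adjusted p = 0.0671) and with an offset on GC content (log2 fold change −0.13, adjusted p = 0.149).

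The INSIG pair moved in opposite directions. Insig1, itself a known SREBP target, had 67 and 61.9 CPM after ablation and 78.3, 73.9 and 79.4 CPM in controls (log2 fold change −0.26, SE 0.0727, edgeR adjusted p = 0.026). Insig2 (ENSMUSG00000003721, chromosome 1, 121304353 to 121332589, GRCm38), whose product also retains SCAP but which is known to depend less on SREBP, had 57.1 and 55.2 CPM after ablation and 46, 45.2 and 46.7 CPM in controls (log2 fold change 0.29, SE 0.0688, edgeR adjusted p = 0.0129). For neither gene did the groups overlap: Insig1 was lower and Insig2 higher in both Treg-ablated libraries. Per kilobase of exon, the ratio of Insig1 to Insig2 was 1.32 and 1.26 in the Treg-ablated libraries and 1.91, 1.84 and 1.91 in the controls, so Insig1 stayed the more abundant of the pair. The call of Insig1 ended without Treg-ablated replicate 2 (adjusted p = 0.145), control replicate 1 (0.0613), control replicate 2 (0.0722) or control replicate 3 (0.0623). That of Insig2 ended when Treg-ablated replicate 1 (0.0603) or control replicate 2 (0.0783) was left out, and with the GC offset (log2 fold change 0.21, adjusted p = 0.0509).

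Stard4, whose product carries sterol between membranes, had 68.5 and 72 CPM after ablation and 92.7, 87.1 and 81.9 CPM in controls (log2 fold change −0.31, SE 0.0756, edgeR adjusted p = 0.014). It did not pass without Treg-ablated replicate 1 (adjusted p = 0.0596) or without control replicate 2 (adjusted p = 0.0732). Without control replicate 2, the deepest library, only Srebf2 and Scap of the 5 regulator genes that fell still passed.

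**Figure D2:**
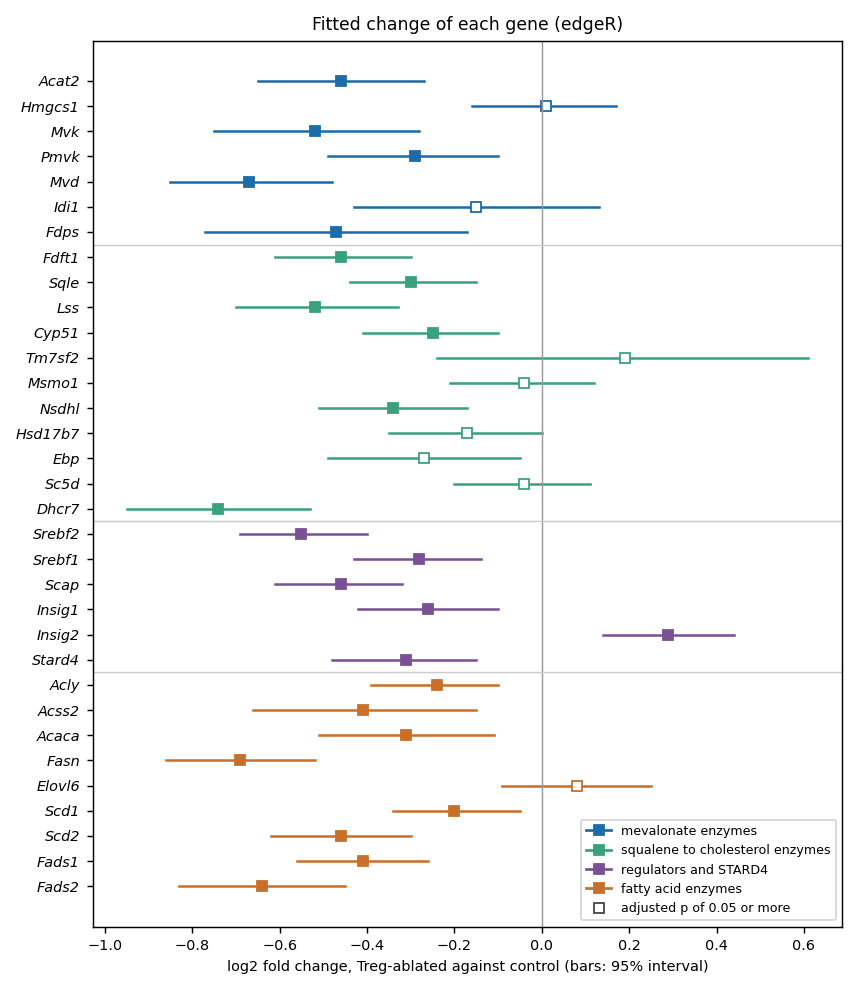
Fitted log2 fold change of each gene, Treg-ablated against control, with its 95% interval from the moderated spread of edgeR; open squares have an adjusted p of 0.05 or more. Dhcr7 (−0.74) lies farthest to the left and Insig2 (0.29) farthest to the right.

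In the mevalonate part of the pathway, from acetyl-CoA to farnesyl diphosphate, 5 of 7 enzyme genes fell and 2 did not pass (median log2 fold change −0.46). Acat2, which encodes the thiolase that joins 2 acetyl-CoA, had 33.5 and 30.4 CPM after ablation and 41.9, 43.1 and 46.9 CPM in controls (log2 fold change −0.46, SE 0.0849, edgeR adjusted p = 0.00412). Its groups did not overlap. Read on either strand, 65.6% of its transcript is at least 95% identical to transcripts of Acat3 or Tcp1. The value of Acat2 is therefore uncertain where reads were shared. Hmgcs1, which encodes the synthase that makes HMG-CoA, had 151 and 167 against 167, 150.1 and 158 CPM. The 2 groups overlapped, with a log2 fold change of 0.01 and a 95% interval of −0.16 to 0.17, so a fall as large as that of Mvd lies outside this interval.

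The 3 enzymes that turn mevalonate into the isoprene unit all fell. Mvk, the mevalonate kinase gene, had 17.6 and 15.2 CPM after ablation and 23, 22.1 and 25.6 CPM in controls (log2 fold change −0.52, SE 0.108, edgeR adjusted p = 0.00755). Pmvk, the next kinase in the route, had 28.9 and 26.6 CPM against 34.3, 35.8 and 31.8 CPM (log2 fold change −0.29, SE 0.088, edgeR adjusted p = 0.0331). Mvd, which encodes the decarboxylase that follows (ENSMUSG00000006517, chromosome 8, 122433596 to 122443422, GRCm38), had 22.9 and 21.4 CPM against 35.1, 34.3 and 36.6 CPM (log2 fold change −0.67, SE 0.0843, edgeR adjusted p = 0.000758). In all 3 genes both Treg-ablated libraries were below every control, and the smallest gap was in Pmvk. Pmvk did not pass without Treg-ablated replicate 2 (adjusted p = 0.166), control replicate 1 (0.0725) or control replicate 2 (0.154), in DESeq2 (0.073) or with the GC offset (log2 fold change −0.15).

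Fdps, which encodes farnesyl diphosphate synthase, had 12.8 and 13.7 CPM after ablation and 15.3, 20.9 and 18.5 CPM in controls (log2 fold change −0.47, SE 0.136, edgeR adjusted p = 0.0291). Its controls were the most spread of this group, and its call ended without Treg-ablated replicate 1 (adjusted p = 0.0891) or without control replicate 2 (adjusted p = 0.127). Of its exon bases 26.7% overlap a predicted gene on the same strand. Idi1, the isomerase gene between Mvd and Fdps, had 12.8 and 13.1 CPM against 16.2, 12.5 and 14.8 CPM, with a log2 fold change of −0.15 (95% interval −0.43 to 0.13) and overlapping groups. Of its transcript 33.3% has near-identical copies in predicted genes.

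From squalene to cholesterol, 6 of 11 enzyme genes fell and 5 did not pass (median log2 fold change −0.27). Fdft1, which encodes squalene synthase and commits the pathway to sterols, had 74.3 and 72.9 CPM after ablation and 97.5, 99.8 and 106 CPM in controls (log2 fold change −0.46, SE 0.0691, edgeR adjusted p = 0.00176). Sqle, the squalene epoxidase gene, had 114 and 123 CPM against 142, 146 and 149 CPM (log2 fold change −0.30, SE 0.0665, edgeR adjusted p = 0.01). Lss, which encodes the cyclase that forms lanosterol, had 30 and 31.7 CPM against 47.2, 44 and 41.2 CPM (log2 fold change −0.52, SE 0.0845, edgeR adjusted p = 0.0024). The groups did not overlap in any of the 3. Fdft1 overlaps Ctsb on the opposite strand over 26.8% of its exon bases. Read on either strand, 54.7% of its transcript is at least 95% identical to transcripts of Ctsb or Gm6781. This share can include the antisense overlap with Ctsb. Part of the Fdft1 reads may therefore have been lost or shared. Sqle did not pass without Treg-ablated replicate 1 (adjusted p = 0.0602) or without control replicate 2 (adjusted p = 0.057).

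Later steps were mixed. Dhcr7, which encodes the reductase of the last step to cholesterol (ENSMUSG00000058454, chromosome 7, 143823145 to 143848410, GRCm38), had 19.5 and 16.8 CPM after ablation and 29.6, 30.4 and 31.2 CPM in controls, the largest fall among the 33 genes (log2 fold change −0.74, SE 0.0952, edgeR adjusted p = 0.000814). Cyp51, the lanosterol demethylase gene, had 105 and 102 CPM against 127, 116 and 128 CPM (log2 fold change −0.25, SE 0.0706, edgeR adjusted p = 0.0252). Nsdhl, a sterol dehydrogenase gene on the X chromosome, had 32.1 and 30.9 CPM against 39.4, 38.7 and 41.8 CPM (log2 fold change −0.34, SE 0.078, edgeR adjusted p = 0.0111). All 3 were lower in both Treg-ablated libraries than in every control. Cyp51 did not pass without Treg-ablated replicate 2 (adjusted p = 0.103), control replicate 1 (0.0646), control replicate 2 (0.0546) or control replicate 3 (0.0617). Nsdhl just missed the threshold without control replicate 2 (adjusted p = 0.05 after rounding).

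The other 5 genes between squalene and cholesterol did not pass. Ebp, a sterol isomerase gene, had 19.5 and 16.5 CPM after ablation and 21.6, 22 and 21.9 CPM in controls (log2 fold change −0.27, 95% interval −0.49 to −0.05, edgeR adjusted p = 0.0707). Hsd17b7, a sterol ketoreductase gene, had 39.5 and 40.7 CPM against 47.5, 42.5 and 45.9 CPM (log2 fold change −0.17, edgeR adjusted p = 0.126). In both, the Treg-ablated libraries lay below all controls even so, and each passed as lower under some alternatives: Ebp without Treg-ablated replicate 1 (adjusted p = 0.0402) and with an offset on gene length (0.0259), Hsd17b7 with the GC offset (0.0187). Msmo1, a methylsterol oxidase gene, had 86.4 and 87.1 CPM against 83.4, 90.4 and 94.5 CPM, with a 95% interval of −0.21 to 0.12 on the log2 fold change. Sc5d, a sterol desaturase gene, had 63.5 and 65.8 CPM against 68.2, 67.6 and 64.1 CPM, with an interval of −0.20 to 0.11. In these 2 genes the groups overlapped, and the intervals do not reach a fall of the size seen in Dhcr7. Tm7sf2, a sterol reductase gene, was low at 6.43 and 4.38 against 4.3, 4.71 and 5.43 CPM, and its interval (−0.24 to 0.61) was the widest of the 33.

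In the fatty acid branch, 8 of 9 genes fell and 1 did not pass (median log2 fold change −0.41). Acly, which encodes the lyase that makes acetyl-CoA from citrate, had 226 and 226 CPM after ablation and 274, 272 and 256 CPM in controls (log2 fold change −0.24, SE 0.065, edgeR adjusted p = 0.0211). Acss2, which makes acetyl-CoA from acetate, had 10.5 and 9.65 CPM against 12.4, 14.2 and 13.5 CPM (log2 fold change −0.41, SE 0.115, edgeR adjusted p = 0.0265). Acaca, the acetyl-CoA carboxylase gene, had 60.7 and 63.7 CPM against 80.4, 82.8 and 68.1 CPM (log2 fold change −0.31, SE 0.0904, edgeR adjusted p = 0.0285). These 3 genes for the supply of substrate were each lower in both Treg-ablated libraries than in any control. Acly did not pass without any one of Treg-ablated replicate 1 (adjusted p = 0.0683), Treg-ablated replicate 2 (0.0726), control replicate 1 (0.0594) and control replicate 2 (0.106), or with the GC offset (0.0955). Acss2 lost its call without Treg-ablated replicate 2 (adjusted p = 0.109), control replicate 2 (0.117) or control replicate 3 (0.0523), and in DESeq2 (0.0788). Acaca lost it without Treg-ablated replicate 1 (adjusted p = 0.087), control replicate 1 (0.0717) or control replicate 2 (0.142), and 64.3% of its transcript has a near-identical copy in the predicted gene Gm5182.

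Fasn, which encodes fatty acid synthase (ENSMUSG00000025153, chromosome 11, 120805846 to 120824547, GRCm38), had 443.8 and 490.3 CPM after ablation and 773, 778 and 715 CPM in controls (log2 fold change −0.69, SE 0.0765, edgeR adjusted p = 0.00039). It had the smallest p of the 33 genes. The elongase gene Elovl6, which acts on the product of the synthase, had 69.5 and 76.4 CPM against 73.6, 66 and 67.2 CPM and overlapping groups (log2 fold change 0.08, 95% interval −0.09 to 0.25). Per kilobase of exon the ratio of Fasn to Elovl6 was 3.75 and 3.77 in the Treg-ablated libraries and 6.17, 6.92 and 6.25 in the controls, with no overlap between groups.

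All 4 desaturase genes fell. Scd2, the stearoyl-CoA desaturase that was the most abundant per kilobase of exon (ENSMUSG00000025203, chromosome 19, 44293676 to 44306864, GRCm38), had 868 and 953 CPM after ablation and 1276, 1232 and 1256 CPM in controls (log2 fold change −0.46, SE 0.0729, edgeR adjusted p = 0.00206). Its neighbour Scd1 had 196 and 208 CPM against 235, 232 and 226 CPM (log2 fold change −0.20, SE 0.0648, edgeR adjusted p = 0.047). Scd1 was thus the weaker of the pair, and its call ended under 9 of the 13 alternatives, including each library left out in turn (adjusted p = 0.0642 to 0.228) and scaling by library size alone (0.0738). The ratio of Scd2 to Scd1 per kilobase was 3.94 and 4.06 after ablation and 4.81, 4.71 and 4.93 in controls; 11.4% of the Scd2 transcript is at least 95% identical to Scd1. Fads1 and Fads2 encode the desaturases of polyunsaturated fatty acids. Fads1 had 81 and 78.5 CPM after ablation and 109.5, 102 and 106 CPM in controls (log2 fold change −0.41, SE 0.0685, edgeR adjusted p = 0.00267). Fads2 had 25.7 and 28.5 CPM against 43.1, 40 and 43.8 CPM (log2 fold change −0.64, SE 0.0852, edgeR adjusted p = 0.000944). The groups did not overlap for either gene.

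Both branches were lower after ablation, and the difference between them was not tested. The mean over genes of log2(CPM + 0.5), relative to the control mean, was −0.27 and −0.33 for the sterol enzymes in Treg-ablated replicates 1 and 2, and −0.39 and −0.33 for the fatty acid enzymes. Controls lay between −0.02 and 0.03 for the sterol enzymes and between −0.03 and 0.03 for the fatty acid enzymes. Summed over genes, the sterol enzymes had 871 and 879 CPM after ablation and 1040, 1020 and 1060 CPM in controls. For the fatty acid enzymes the sums were 1981 and 2134 against 2877, 2818 and 2752 CPM, and Scd2 and Fasn made up most of each. Both counts depended on single libraries. In the fatty acid branch 5 genes were lower when either Treg-ablated library or control replicate 1 was left out, and 4 when control replicate 2 was. For the sterol enzymes the lowest number was 6, again without control replicate 2.

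Levels per kilobase of exon, averaged over the 5 libraries, ranged widely within each branch. Scd2 was highest at 205 CPM per kilobase, followed by Srebf2 at 68.1, Fasn at 58.5 and Hmgcs1 at 49.1. At the low end, Acss2 had 1.19, Tm7sf2 1.45 and Lss 3.6 CPM per kilobase, although the annotated exons of Lss and Acss2 are long, at 10787 and 10163 bases. Both abundant and scarce genes fell, and among the 4 most abundant only Hmgcs1 did not pass. Srebf2 exceeded Srebf1 per kilobase 3.35- and 3.5-fold in the Treg-ablated libraries and 4.04-, 4.1- and 4.19-fold in the controls.

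**Figure D3:**
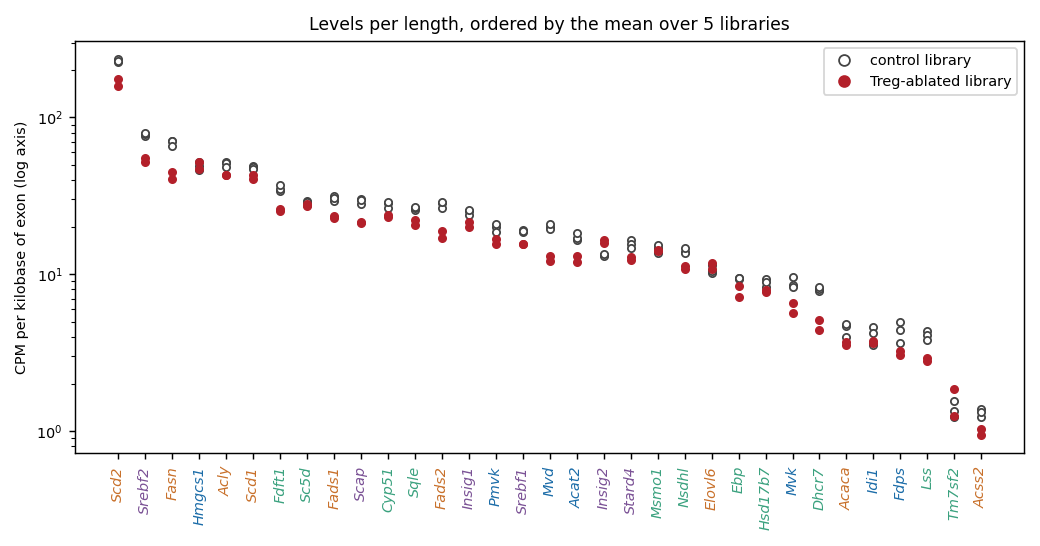
CPM per kilobase of exon of each gene in each library, on a log axis, ordered by the mean over the 5 libraries. Filled points are Treg-ablated and open points control libraries; Scd2 stands highest at a mean of 205 and Acss2 lowest at 1.19.

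GC content moved with these changes. The median GC content of the longest transcript was 51.2% in the 24 members that fell and 44% in the 8 that did not pass, and it was 46% in Insig2. The same held across all genes tested, where the medians were 53.8% in lower, 45.4% in higher and 49.3% in the remaining genes. With a per-library offset on GC content, 11 sterol enzymes, 7 fatty acid enzymes and 4 regulators were lower, and 1294 of all genes were. With it, the log2 fold change of Fasn went from −0.69 to −0.54 and that of Srebf2 from −0.55 to −0.40, while those of Hmgcs1 and Idi1 went from 0.01 to −0.12 and from −0.15 to −0.29.

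**Figure D4:**
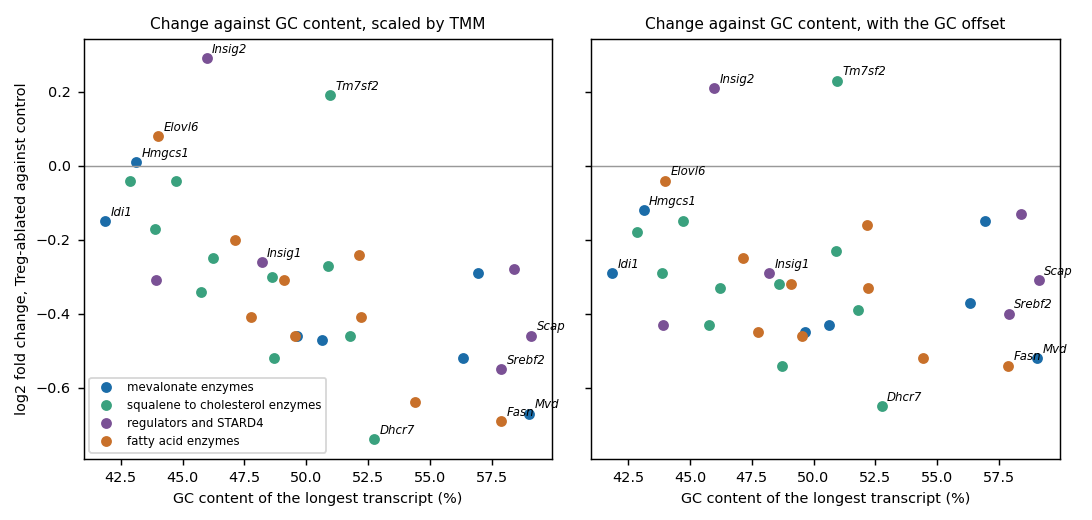
Log2 fold change of each gene against the GC content of its longest transcript, scaled by TMM (left) and with the per-library GC offset (right); points are coloured by role. At left Hmgcs1 and Elovl6 lie at or above 0 (0.01 and 0.08), and at right they lie below it (−0.12 and −0.04).

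Neighbouring lists of lipid genes were counted in the same way. Of 18 further SREBP target genes tested 8 were lower and 0 higher (median log2 fold change −0.20), but 2 were lower without control replicate 2 and 5 without Treg-ablated replicate 1. The 8 include Slc25a1, the citrate carrier (log2 fold change −0.40, SE 0.0762, edgeR adjusted p = 0.00455), Aacs, which activates acetoacetate (log2 fold change −0.33, SE 0.069, edgeR adjusted p = 0.00694), Fads3 (log2 fold change −0.40) and Gpam, which starts triglyceride synthesis (log2 fold change −0.44). Of 18 genes for the cleavage and turnover of the pathway's proteins 3 were lower and 2 higher, close to the shares over all genes (12.3% and 13.5%); without control replicate 1 there was 1 higher gene, and 0 were higher without control replicate 2 or with the GC offset. Mbtps1, which encodes the site-1 protease that cleaves SREBPs, had 209 and 241 CPM after ablation and 313, 316 and 306 CPM in controls (log2 fold change −0.47, SE 0.0748, edgeR adjusted p = 0.00211), with both Treg-ablated libraries below all controls. Usp20 fell as well (log2 fold change −0.35, edgeR adjusted p = 0.0174), while Pgrmc1 rose (log2 fold change 0.31, edgeR adjusted p = 0.0109).

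For genes of isoprenoid use and of fatty acid oxidation, each count lay within 2 genes of the rate over all genes (12.3% lower and 13.5% higher), and nothing is read from these counts. Of 13 isoprenoid and prenylation genes 3 were lower and 2 higher (median 0.03), with 1 lower when control replicate 2 was left out. Icmt, the methyltransferase of prenylated proteins, and Dhdds, a subunit of the dolichol enzyme, fell (log2 fold changes −0.35 and −0.40), whereas Nus1, the other subunit of that enzyme, and Rabggtb rose (0.34 and 0.33). Of 18 genes of fatty acid oxidation tested 2 were lower and 3 higher (median −0.08): Acadl, Acadm and Etfa rose (log2 fold changes 0.34, 0.30 and 0.44), and Acads fell (−0.30). The lower calls of this list dropped to 0 with the GC offset, without Treg-ablated replicate 2 and without control replicate 2, and to 1 without Treg-ablated replicate 1 or control replicate 3.

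Genes of sterol efflux and uptake formed further lists. Over all genes tested 12.3% were lower and 13.5% higher, and with lists this small nothing is read from their counts. Of 10 genes of the LXR (liver X receptor, the oxysterol sensor) and efflux list 4 were lower and 1 higher (median −0.32), with 2 lower when Treg-ablated replicate 2 or control replicate 2 was left out. Apoe had 26.2 and 22.1 CPM after ablation and 62.9, 64.5 and 64.2 CPM in controls (log2 fold change −1.40, SE 0.0871, edgeR adjusted p = 9.5e-06). Abca1, the efflux pump, was low and fell (from 4.41 ± 0.333 to 2.39 ± 0.183 CPM, SD, n = 3 and 2; log2 fold change −0.88), Pltp fell (log2 fold change −0.40) and Arl4c rose (0.38). Of 12 genes tested for oxysterols, esters and trafficking 3 were lower and 0 higher: Npc1, the lysosomal exporter of cholesterol (log2 fold change −0.54, SE 0.0865, edgeR adjusted p = 0.00223), Lrp1, a lipoprotein receptor (log2 fold change −0.69, SE 0.116, edgeR adjusted p = 0.00273), and Scarb1 (log2 fold change −0.34). Lipa, the lysosomal esterase, did not pass (log2 fold change −0.18, edgeR adjusted p = 0.054). Over these 6 lists 22 of the 88 genes tested were lower and 8 higher, against 9 lower and 5 higher when control replicate 2 was left out. Calls over all genes fell too without that library, from 1787 to 554 lower and from 1971 to 812 higher. The drop is therefore not particular to these lists.

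Markers of several cell types also changed, some lists mostly downward and others upward, and their part in the changes of the SREBP genes was not tested. For comparison, 12.3% of all genes tested were lower and 13.5% higher. The summed level of 20 macrophage markers was 372 and 317 CPM after ablation and 527 to 550 CPM in controls, and 12 of 19 tested fell. That of 20 fibroblast markers was 21820 and 24230 CPM against 23590 to 27580 CPM, with 11 lower and 1 higher. By the mean over genes of log2(CPM + 0.5), relative to the control mean, fibroblast markers were at −0.34 and −0.33 in Treg-ablated replicates 1 and 2. The 19 macrophage markers tested were at −0.50 and −0.72. On this measure the sterol enzymes were at −0.27 and −0.33 and the fatty acid enzymes at −0.39 and −0.33, so these marker lists fell by a similar or greater amount. T and NK cell markers rose in 16 of 18 genes, from 39 to 47.2 CPM in sum to 129 and 135 CPM, and B cell markers in 8 of 10 tested. For adipocytes, which make fatty acids in the mammary fat pad, 17 markers summed to 11.5 to 16.5 CPM and 0 of the 5 tested passed. By the mean over the 5 libraries the highest were Lipe (4.41 to 5.16 CPM) and Lpl (2.187 to 3.355 CPM). Adipoq had at most 0.0697 CPM and Plin1 at most 0.1 CPM. The 18 proliferation markers summed to 2294 and 2300 CPM after ablation and 2393 to 2458 CPM in controls, with 4 lower and 2 higher. The 17 epithelial markers, at 275 to 336 CPM, had 0 of 7 tested pass, and of 4 neutrophil genes tested 1, Retnlg, rose. Most of the epithelial sum was Krt18 (180 to 222 CPM) and Krt8 (74.75 to 89.84 CPM), while Epcam had at most 0.63 CPM. Of 20 interferon-γ response genes, 18 rose in the same libraries (median log2 fold change 1.11).

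**Figure D5:**
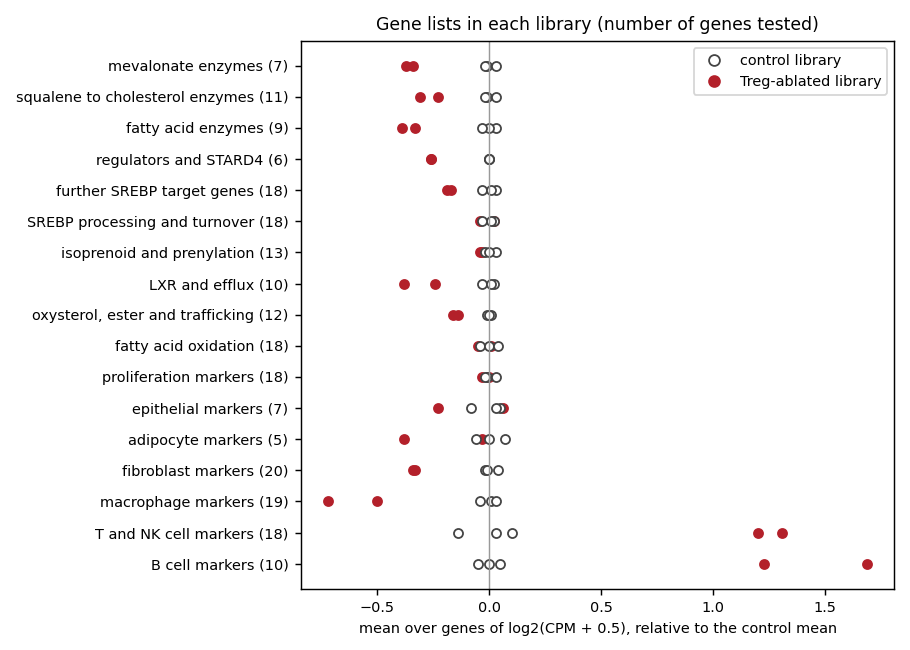
Mean over the genes of each list of log2(CPM + 0.5), relative to the mean of the 3 control libraries, for the SREBP genes, neighbouring lipid lists and cell type markers. Filled points are the 2 Treg-ablated and open points the 3 control libraries. The sterol, fatty acid and fibroblast lists lie near −0.3, the macrophage list lies lower, and the T, NK and B cell markers lie above 1.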

How the data were processed

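RNA-seq gene counts of 5 libraries were analysed, 2 Treg-ablated and 3 control, grouped by sample title. The deposited values are raw counts per gene. Per the file headers they come from featureCounts 1.6.2, which counted fragments over exons of a filtered Ensembl 83 annotation of GRCm38, with no strand and no multi-mapping option set. The submitters' processing notes list Trimmomatic 0.33, FastQC 0.11.5, DESeq2 1.16.1 and Subread 1.6.2. Symbols were joined by Ensembl identifier through GENCODE M21 (46488 of 46983 genes).

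All genes kept by filterByExpr (14580) were scaled by TMM and tested with edgeR 4.0.16 (quasi-likelihood F test in R 4.3.3). Group was the only term, p-values were adjusted over all genes by Benjamini-Hochberg, and 0.05 was the threshold. SE was taken as the absolute log2 fold change over the root of the F statistic. CPM use the TMM-scaled library size. The test was checked on counts simulated from its own fitted dispersions. There it found 80.6% of 1.5-fold changes, and 8 of its 187 calls were false. Smaller changes were not simulated. As simulated libraries were independent, the check cannot tell whether the real spread is technical. The members and lists were chosen with earlier results of these data known, so no test of a list is given. Named are all 33 members, up to 4 genes per neighbouring list with the smallest p, and markers; 1 gene named by this rule is not reported here. Alternatives were RLE factors, library size alone, a filter on 1 count in any library, DESeq2 1.42.0, the replicate number as a block, offsets on GC content and exon length (lowess, span 0.3), and leaving out each library. Replicates differed beyond sampling noise (chi-square per degree of freedom 3.88 to 7.24). Copies were sought with blastn in GENCODE M21 transcripts (stretches of at least 200 bases and 95% identity, on either strand). Promoters are RefSeq windows.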

Additional observations from a re-analysis of the deposited data

How the results depend on the processing

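Of the 33 members, 12 passed as lower under all 13 alternatives, and 28 had a log2 fold change below 0 in all of them. Signs changed only for genes that did not pass: Hmgcs1 was at −0.01 when genes were kept from 1 count upward and at −0.12 with the GC offset, and it ran from −0.06 (Treg-ablated replicate 2 left out; −0.03 for control replicate 2) to 0.08 over the libraries left out. Tm7sf2 ran from −0.13 (Treg-ablated replicate 1 left out) to 0.42, and Elovl6 was at −0.04 with the GC offset. Leaving out 1 library at a time gave 6 to 10 lower sterol enzymes, 4 to 6 lower fatty acid enzymes, 2 to 4 lower and 0 to 1 higher regulators, 9 to 22 lower and 5 to 8 higher genes of the neighbouring lists, and 554 to 1538 lower and 812 to 1687 higher genes in all. The lowest numbers of lower genes came without control replicate 2; when a Treg-ablated library was left out, the spread of the other was taken to equal that of the controls. With the GC offset 0 regulators were higher. RLE factors changed no call of a member, library size alone ended 1, and DESeq2 ended 3.

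The replicate block gave 7 lower sterol enzymes, 5 lower fatty acid enzymes and 3 lower and 0 higher regulators, with 1111 lower and 1304 higher genes in all on the 4 libraries numbered 1 and 2, and 1116 and 1296 on all 5. In each of these 2 fits 10 calls of members ended: those of Pmvk, Sqle, Cyp51, Nsdhl, Srebf1, Insig1, Insig2, Acly, Acss2 and Scd1. Whether the numbers pair the libraries is not known. The deviations of same-numbered libraries from their group means correlated at −0.282 and −0.013. With 2 Treg-ablated libraries these deviations mirror each other, so the correlations cannot decide on pairing. The causes of these differences were not tested. Tm7sf2 rests on the fewest counts of the members, 58 to 102 per library.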
